A study of Mus musculus with 20 samples.

Results

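The comparison set the 6 fastest cycling of 20 mouse breast tumors against the 6 slowest, across all other genes. Tumors were selected by a score, the mean over 5 genes of the z-score of log2(CPM + 1), where CPM is counts scaled to an equal library total and the z-score was taken over the 20 tumors. The 5 genes were Mki67, Top2a, Ccnb1, Bub1 and Cdk1, which cycling cells transcribe, and Yam1 and AY036118, a pair of genes that lie over ribosomal RNA, were left out of the totals. The other 8 tumors lay between the groups. All 20 tumors came from female [BALB/c-neuT x FVB/J] F1 mice of up to 20 weeks of age, 1 tumor per mouse, in which the neuT transgene (activated rat Her2/neu under the MMTV promoter) gives rise to mammary tumors. RNA came from a small frozen piece of each tumor, so that tumor cells and the tissue around them were read together. No tumor was treated, and normal mammary tissue was not analysed here. Sample names carry Lo or Hi, a label whose meaning the sources do not give. Of the fast tumors 4 were Lo and 2 Hi, of the slow tumors 1 was Lo and 5 were Hi, and of the tumors between 4 were Lo and 4 Hi, so that score and label are partly tied.

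A dividing cell copies its DNA in S phase and separates the copies in mitosis. E2F transcription factors, released from the Rb family of proteins when cyclin D kinases act, switch on the S phase genes. The mitotic genes follow later under B-Myb, FoxM1 and the MuvB complex, through an element called CHR, often beside CCAAT boxes bound by NF-Y. In bulk RNA a higher level of such genes cannot tell more cycling cells from more RNA per cycling cell.

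Between 38765682 and 65465755 reads were counted on genes per tumor, with 38765682 to 65465755 in fast and 47461277 to 59519876 in slow tumors. The pair of genes over ribosomal RNA took between 6.29% and 27.7% of the counts. Their share was 16.7% ± 4.79 (SD, n = 6) in fast and 13.3% ± 4.56 (SD, n = 6) in slow tumors, a difference of 3.35 percentage points (exact two-sided permutation test, p = 0.253, where 0.00216 is the smallest p that 924 splits allow). Epithelial markers were present in every tumor, with Epcam, an adhesion protein of epithelial cells, at 1035, 1241 and 1417 CPM in fast and at 1145, 1226 and 1599 CPM in slow tumors (lowest, median and highest, here and in each such set of 3 values).

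The score was 1.14 in tumor 1, 0.873 in tumor 5, 0.851 in tumor 9, 0.687 in tumor 4, 0.665 in tumor 14 and 0.663 in tumor 11, the fast group. Tumor 2, just outside this group, had a score of 0.633. The slow group held tumor 19 at -0.47, tumor 12 at -0.72, tumor 13 at -0.83, tumor 7 at -1.28, tumor 22 at -1.33 and tumor 21 at -2.60. Tumor 16, just outside, had a score of -0.041. The fast edge was a cut within a continuous range, the slow edge lay in a gap of the scores, and tumor 21 stood far below the others.

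The score genes chose the groups, so their values are a description. They are given as CPM scaled by normalization factors (TMM), whereas the score used plain totals. On the scale given here tumor 2, outside the fast group, lay above tumor 11, inside it, in Top2a (168 against 155 CPM), Ccnb1 (37.8 against 35.1). It did so in Bub1 (26.0 against 23.2) and Cdk1 (85.3 against 78.3) as well, but not in Mki67 (375 against 381). Mki67, the gene of the proliferation antigen Ki-67, had a median of 368 CPM (lowest 354, highest 386) in fast and 245 CPM (161 to 300.4) in slow tumors. Top2a, the topoisomerase that untangles copied chromosomes, had medians of 169 and 110.1 CPM. Ccnb1, the cyclin of mitotic entry, had medians of 37.04 and 23.4 CPM, and its kinase partner Cdk1 had medians of 83.2 and 61.2 CPM. Bub1, a spindle checkpoint kinase, had medians of 27.96 and 17.5 CPM. The ratio of the medians lay between 1.36 for Cdk1 and 1.60 for Bub1, and for none of the 5 genes did the ranges of the groups overlap.

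**Figure D1:**
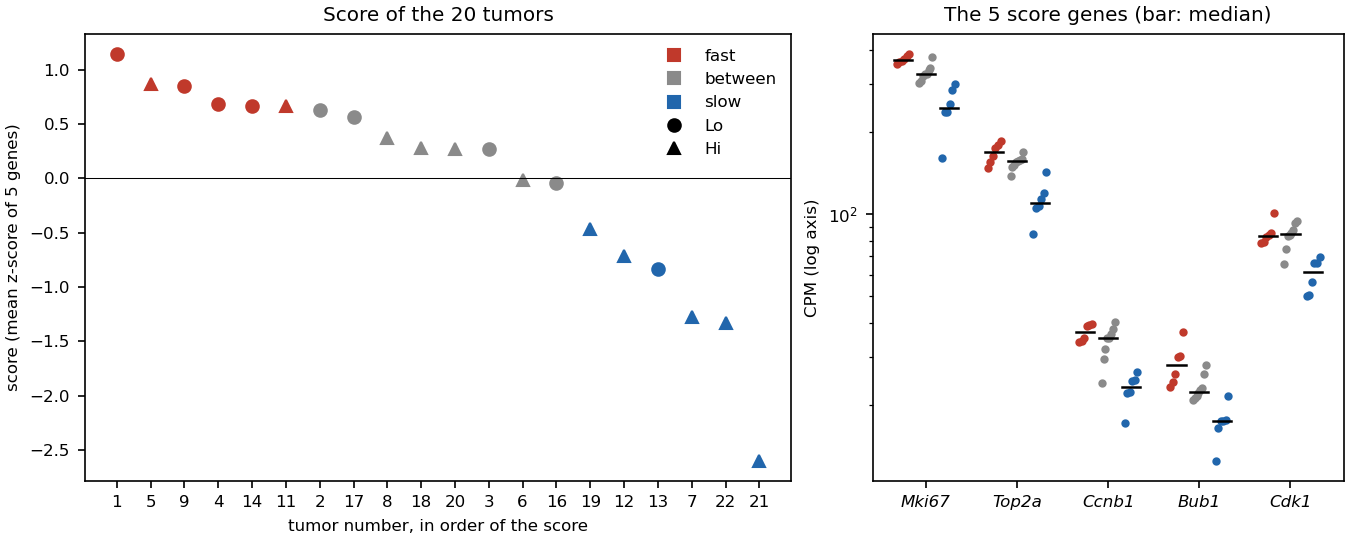
The left panel plots the score of each tumor in its order, with color for the group and shape for the Lo or Hi label, and the right panel plots CPM of the 5 score genes on a log axis with bars at the group medians. The fast scores run from 0.663 to 1.14 and the slow ones from -0.47 to -2.60.

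Each of 18959 other genes was tested for a difference with the quasi-likelihood method of edgeR, and p was adjusted over all of them (Benjamini-Hochberg). None of them, 0%, reached an adjusted p of 0.05 (0 genes), and the lowest adjusted p was 0.135, shared by 27 genes. With 1 tumor from each mouse, these p-values measure the spread between tumors. At an unadjusted p under 0.05, 686 genes were higher (3.62%) and 573 lower (3.02%) in fast tumors, 6.64% of genes in all. DESeq2 on the same 12 tumors, the alternative tool, passed 193 of 24244 genes (0.796%), 159 as higher (0.656%) and 34 as lower (0.140%). When the 8 tumors between joined the edgeR fit as a group of their own, 44 genes passed as higher and 3 as lower. With Lo or Hi as a term, 0 genes passed by edgeR (0%), 593 had an unadjusted p under 0.05 (3.13%) and the lowest adjusted p was 0.794.

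The genes at the top of the ranking were largely of one kind. Of the 105 genes that were higher at an adjusted p under 0.2 by edgeR, 60 (57.1%) belonged to 5 lists of cell cycle and repair genes, which hold 1.16% of the genes tested, and 8 to a list of skeletal muscle genes. The 5 lists are those of cyclins and kinases, kinetochore, spindle, DNA replication and homologous recombination. Lists of the E2F and cyclin D axis and of cell cycle inhibitors were not among them. Of the 15 lower genes at that level, 0 belonged to the 5 lists or the muscle list. Cdkn2a, of the inhibitor list, was 1 of the 15. Of the 159 genes that DESeq2 passed as higher, 74 (46.5%) were of the cell cycle and repair lists and 8 of the muscle list. Cycling cells transcribe the genes of the cell cycle and repair lists as well as the score genes, though which cells held these RNAs was not measured. The score also comes from the same libraries, so the direction of these lists is not independent evidence. The counts describe which other branches of the cell cycle programme went with the 5 genes.

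The 10 genes with the smallest p that were higher in fast tumors were Casc5, Ube2c, Depdc1a, Prr11, Rrm2, Plk4, Nusap1, Fbxo5, C330027C09Rik and Chek1, each at an adjusted p of 0.135 by edgeR. In each of them every fast tumor lay above every slow tumor, a pattern seen in 0.475% of genes (90 of 18959). Casc5 (Knl1, ENSMUSG00000027326), the kinetochore scaffold that recruits Bub1, is at Chr2, 119047119 to 119105501 (mm10). It was at 25.6, 31.3 and 34.9 CPM in fast and at 12.9, 18.7 and 20.6 CPM in slow tumors. Its log2 fold change was 0.77 (standard error 0.12), and 0.73 with Lo or Hi as a term. Ube2c (ENSMUSG00000001403), the ubiquitin-conjugating enzyme of the anaphase-promoting complex, is at Chr2, 164769898 to 164778822. It was at 48.96, 66.7 and 97.2 CPM in fast and at 26.7, 35.5 and 42.9 CPM in slow tumors, a log2 fold change of 0.97 (standard error 0.16) or 0.84 with the label term. Tumor 14 was the highest of the fast and tumor 21 the lowest of the slow tumors in both genes.

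Plk4, the kinase that starts centriole duplication, was at 19.9, 20.9 and 22.8 CPM in fast and at 12.8, 13.8 and 18.1 CPM in slow tumors. Rrm2, the ribonucleotide reductase subunit that limits the supply of DNA precursors, was at 73.8, 88.5 and 96.7 CPM in fast and at 57.04, 65.4 and 69.3 CPM in slow tumors. Chek1, the kinase of the replication checkpoint, was at 12.5, 13.6 and 15.8 CPM in fast and at 9.17, 10.01 and 10.3 CPM in slow tumors. The log2 fold changes of these 3 genes were 0.54, 0.46 and 0.50, smaller than those of Casc5 and Ube2c. Fbxo5 (Emi1), an inhibitor of the anaphase-promoting complex, had medians of 14.3 and 10.3 CPM. Nusap1, a protein of spindle microtubules, had medians of 44.04 and 28.7 CPM. C330027C09Rik (Cip2a), an inhibitor of the phosphatase PP2A, had medians of 42.2 and 29.5 CPM. The last members of the 10 were Depdc1a, with medians of 17.5 and 10.8 CPM, and Prr11, with medians of 19.2 and 12.8 CPM.

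Promoters of some of these genes hold the elements by which mitotic genes are known to be controlled, and 4 are printed because they hold a CHR element and a CCAAT box together. A RefSeq promoter (250 bases before the start to 50 from it, GRCm38.p6, the coordinates of mm10) was matched by symbol for 12442 of the 18959 genes tested. The motifs searched were TTTGAA for CHR, CCAAT, and TTTGGCGC, TTTCGCGC, TTTCCCGC or TTTGCCGC for E2F, each on both strands, and matches could overlap. Each stretch runs 5′ to 3′ on the strand of the gene, from 130 bases before the start to 20 from it, with CHR and CCAAT matches in capitals (TTCAAA and ATTGG are the same motifs on the other strand). Of the 10 genes, 5 held a CHR match, 6 a CCAAT box and 0 an E2F match, and Plk4, Nusap1 and Chek1 held none of these. Rrm2, an S phase gene with a CCAAT box and no CHR or E2F match, is given for contrast.
Ube2c (chr2:164769799-164769948, plus strand): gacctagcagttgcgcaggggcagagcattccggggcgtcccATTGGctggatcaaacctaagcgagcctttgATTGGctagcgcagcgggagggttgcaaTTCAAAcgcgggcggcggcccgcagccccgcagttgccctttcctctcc
Depdc1a (chr3:159495303-159495452, plus strand): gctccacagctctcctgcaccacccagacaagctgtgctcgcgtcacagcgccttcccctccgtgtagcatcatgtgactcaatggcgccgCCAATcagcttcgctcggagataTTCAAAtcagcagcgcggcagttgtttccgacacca
Prr11 (chr11:87108695-87108844, minus strand): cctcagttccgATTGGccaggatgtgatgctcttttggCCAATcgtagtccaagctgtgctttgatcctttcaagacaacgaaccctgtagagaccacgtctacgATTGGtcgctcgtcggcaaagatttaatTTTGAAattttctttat
Fbxo5 (chr10:5805446-5805595, minus strand): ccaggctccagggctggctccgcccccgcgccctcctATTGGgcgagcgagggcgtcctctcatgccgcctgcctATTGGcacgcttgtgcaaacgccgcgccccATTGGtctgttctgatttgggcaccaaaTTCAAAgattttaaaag
Rrm2 (chr12:24708124-24708273, plus strand): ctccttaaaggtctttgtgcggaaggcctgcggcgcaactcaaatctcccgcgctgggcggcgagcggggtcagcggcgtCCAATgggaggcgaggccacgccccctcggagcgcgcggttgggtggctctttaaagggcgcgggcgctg

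In Ube2c the CHR match lay 29 to 24 bases before the start, and in Depdc1a 16 to 11 bases before it. In Prr11 and Fbxo5 it lay at bases 4 to 9 from the start. Among the 97 genes with a promoter in the 3 mitosis lists (cyclins and kinases, kinetochore, spindle), 56.7% held a CHR match. The share was 14.9% of the 12442 tested genes with a promoter, the background for each motif here. CHR and CCAAT stood together in 44.3% of them, against 6.16%. Among 47 replication genes with a promoter the motifs stood in another proportion. CHR was in 21.3%, CCAAT in 61.7% (background 42.1%) and an E2F match in 36.2% (background 4.26%). The E2F match was in 13.4% of the mitosis genes. A match is a description of the letters and not a bound site, and binding was not measured in these tumors.

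Mitotic genes had the largest share of higher genes among the cell cycle lists. Of the score genes, Ccnb1, Cdk1 and Bub1 act in mitosis themselves. Ranking tumors by such a score favors mitosis lists in advance, so the order of the cell cycle lists here and below is a description only. The 3 mitosis lists held 117 genes, of which 116 had a positive log2 fold change, 97 an unadjusted p under 0.05 by edgeR (background 3.62%) and 39 no overlap between the groups (background 0.475%). DESeq2 passed 62 of the 117 (background 0.656%). In the list of cyclins, kinases and mitotic transcription factors, 19 of 23 genes had an unadjusted p under 0.05 and the median log2 fold change was 0.52, against -0.0076 over all genes tested. Ccna2, the cyclin of S phase and early mitosis, was at 82.4, 97.8 and 104 CPM in fast and at 49.9, 68.7 and 75.7 CPM in slow tumors, with no overlap between the groups. Pbk, a kinase of mitotic cells, had medians of 74.2 and 52.3 CPM, with overlap.

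Other regulators of the cell cycle, chosen for mention after their values were seen, ranged from level to clearly separated medians. Cdk2, the partner of cyclins E and A, had medians of 40.1 and 38.1 CPM and a log2 fold change of 0.059. Wee1, the kinase that holds Cdk1 inactive, had medians of 21.9 and 19.7 CPM (log2 fold change 0.12). Lin9, a subunit of the MuvB complex itself, had medians of 18.3 and 16.8 CPM (log2 fold change 0.085). The ranges of the groups overlapped in these 3 genes by most of their width. Cdc25b, the phosphatase that opposes Wee1, had medians of 29.1 and 20.2 CPM, and Plk1, the main mitotic Polo kinase, of 35.8 and 23.3 CPM.

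At the kinetochore, where chromosomes meet the spindle, 33 of 44 genes were higher at an unadjusted p under 0.05 (background 3.62%). The median log2 fold change of the list was 0.44. The members with the most counts were among those that hardly differed. Hjurp, the chaperone of the centromeric histone, had medians of 122 and 104 CPM with overlap (log2 fold change 0.15), and Zwint, a linker of the outer kinetochore, had 87.4 and 88.97 CPM (log2 fold change -0.0051). Chosen after their values were seen, Ndc80, Spc24 and Spc25 are 3 subunits of the microtubule-binding Ndc80 complex. Their log2 fold changes were 0.55, 0.47 and 0.65, and in each of them the groups did not overlap. The centromere proteins Cenpo, Cenpt and Cenpq, also chosen after their values were seen, had log2 fold changes of 0.053, 0.062 and 0.029, with overlap.

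Among genes of the spindle, chromosome structure and cytokinesis, 45 of 50 were higher at an unadjusted p under 0.05 (background 3.62%). The median log2 fold change of the list was 0.49. Tpx2, which builds spindle microtubules, had medians of 74.7 and 48.4 CPM, and the condensin subunits Ncaph and Ncapg had medians of 35.6 and 22.6 CPM and of 33.8 and 22.4 CPM (the 3 were chosen after their values were seen). Cohesin, the ring that holds sister chromatids and also folds chromosomes outside mitosis, differed less. Rad21, one of its subunits, was at 170.2, 204 and 237 CPM in fast and at 155, 195 and 220.4 CPM in slow tumors. Smc1a had medians of 115 and 113 CPM, and Smc3, chosen after its values were seen, of 87.7 and 82.3 CPM. The groups overlapped in all 3 cohesin genes.

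**Figure D2:**
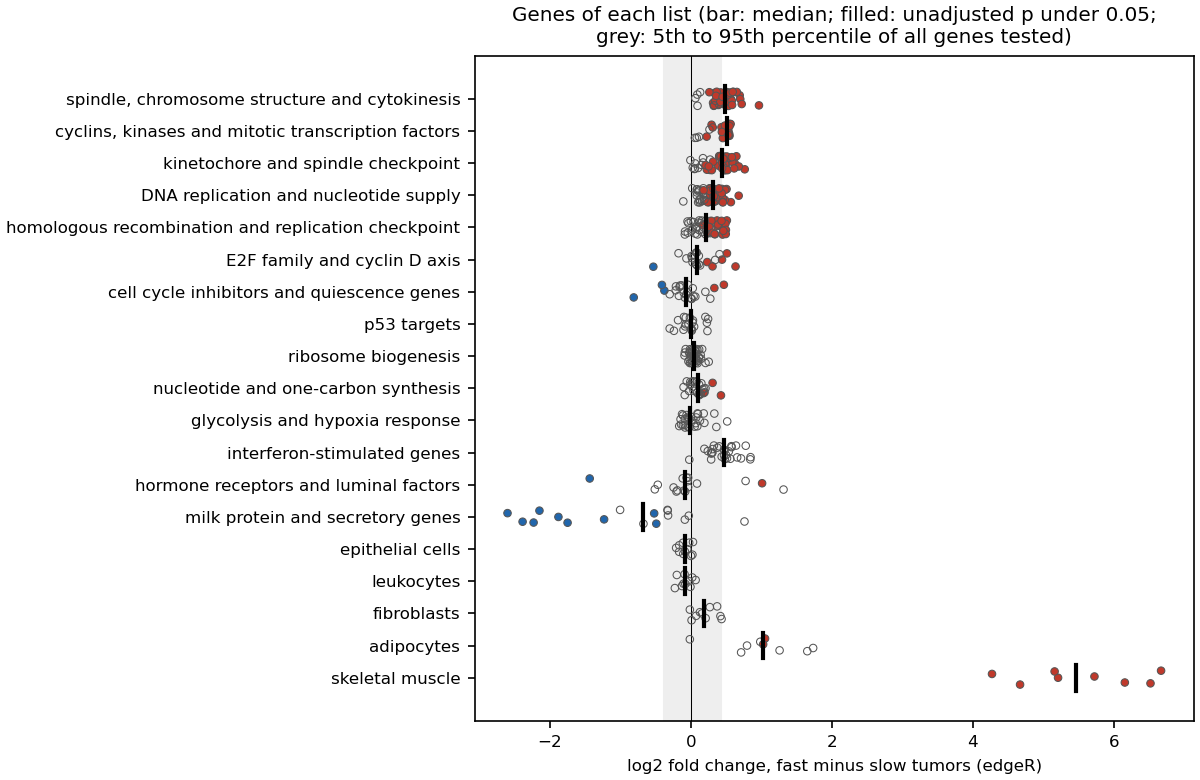
Each point is a gene, placed by its log2 fold change between fast and slow tumors (edgeR), in rows by list, with black bars at the medians, filled points at an unadjusted p under 0.05 and a grey band for the central part of all genes. The mitosis lists have medians of 0.44 to 0.52, the replication list 0.32, the milk list -0.67 and the skeletal muscle list 5.47.

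DNA replication genes differed by less. Of 57 genes, 35 were higher at an unadjusted p under 0.05 (background 3.62%), and DESeq2 passed 8 (background 0.656%). The median log2 fold change was 0.32. Dnmt1, which copies DNA methylation, had medians of 135 and 126 CPM with overlap (log2 fold change 0.13), and Rrm1, the partner of Rrm2, was at 105, 114 and 139.7 CPM in fast and at 81.3, 97.04 and 101 CPM in slow tumors. Chosen after their values were seen, Prim1, a primase subunit, had medians of 31.04 and 23.6 CPM without overlap, and Tyms, which makes thymidylate, had 43.5 and 34.5 CPM without overlap. Pcna, the sliding clamp, overlapped at medians of 99.2 and 75.99 CPM. The helicase subunits Mcm5 and Mcm2 had log2 fold changes of 0.36 and 0.21, with overlap. The single-strand binding subunit Rpa1 had medians of 83.1 and 83.5 CPM. The level of the list, a mean of log2(CPM + 0.5), ran from 4.86 to 5.19 in fast and from 4.63 to 4.93 in slow tumors, so that the groups overlapped. They did not in the 3 mitosis lists, in homologous recombination (3.97 to 4.15 against 3.67 to 3.96) or, by a narrow margin, in the E2F and cyclin D list (4.668 to 4.739 against 4.498 to 4.666).

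In homologous recombination and the replication checkpoint, 19 of 46 genes were higher at an unadjusted p under 0.05 (background 3.62%). The median log2 fold change of the list was 0.21. Topbp1, an activator of the checkpoint kinase Atr, had medians of 68.8 and 55.8 CPM, and the groups overlapped. Chosen after its values were seen, Brca1 had medians of 22.9 and 17.6 CPM without overlap. The break sensor genes Rad50 and Nbn, also chosen so, had log2 fold changes of 0.027 and -0.046.

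The regulators of the G1 to S step had a smaller median difference than the lists of replication and mitosis. Of 21 genes of the E2F family and the cyclin D axis, 5 were higher and 1 lower at an unadjusted p under 0.05 (backgrounds 3.62% and 3.02%). The median log2 fold change of the list was 0.086. Ccnd1, the cyclin through which Her2 signalling feeds into the cell cycle, was at 465, 513 and 949.9 CPM in fast and at 465, 569.8 and 727 CPM in slow tumors. Cdk4, its kinase, had medians of 243 and 222 CPM, and E2f1 of 18.99 and 13.7 CPM with overlap (log2 fold change 0.44, adjusted p = 0.624 by edgeR). The pair of genes in the list that DESeq2 passed were E2f7 and E2f8, the atypical E2F factors that are themselves switched on in S phase and repress E2F targets. E2f7 was at 6.60, 7.13 and 7.63 CPM in fast and at 3.21, 4.67 and 6.36 CPM in slow tumors. E2f8 was at 11.1, 11.5 and 12.5 CPM in fast and at 6.37, 8.18 and 9.74 CPM in slow tumors. In both genes every fast tumor lay above every slow tumor. Chosen after its values were seen, Myc had medians of 82.1 and 85.7 CPM. Erbb2, the mouse counterpart of the oncogene, had medians of 218 and 254 CPM (log2 fold change -0.21, adjusted p = 0.686 by edgeR). The level of the rat transgene was not measured apart.

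Cell cycle inhibitors and quiescence genes, 25 in number, showed no common direction. At an unadjusted p under 0.05, 2 were higher and 3 lower (backgrounds 3.62% and 3.02%). The median log2 fold change of the list was -0.065, and its members ran from -0.81 to 0.47. The members with the most counts were Txnip, an inhibitor of thioredoxin, with medians of 467 and 422 CPM, and Btg1, an antiproliferation factor, with 162 and 182 CPM. Cdkn2a, which encodes the inhibitors p16 and p19Arf, was among the 10 lower genes with the smallest p. It is at Chr4, 89274471 to 89294653 (mm10) and was at 6.23, 7.69 and 13.7 CPM in fast and at 12.5, 13.9 and 20.5 CPM in slow tumors. Its log2 fold change of -0.81 had a standard error of 0.19 and an adjusted p of 0.160 by edgeR and 0.00858 by DESeq2. Tumor 14 alone of the fast tumors reached the slow range, and the value with Lo or Hi as a term was -0.87. Chr4 dosage, the median relative expression of the genes on that chromosome, differed by -0.064 between the groups. Gadd45a and Cdkn2b, chosen after their values were seen, had log2 fold changes of -0.41 and -0.37. Cdkn1a, the inhibitor that p53 switches on, also chosen so, was at 53.95, 79.05 and 282 CPM in fast and at 60.8, 89.5 and 129 CPM in slow tumors.

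**Figure D3:**
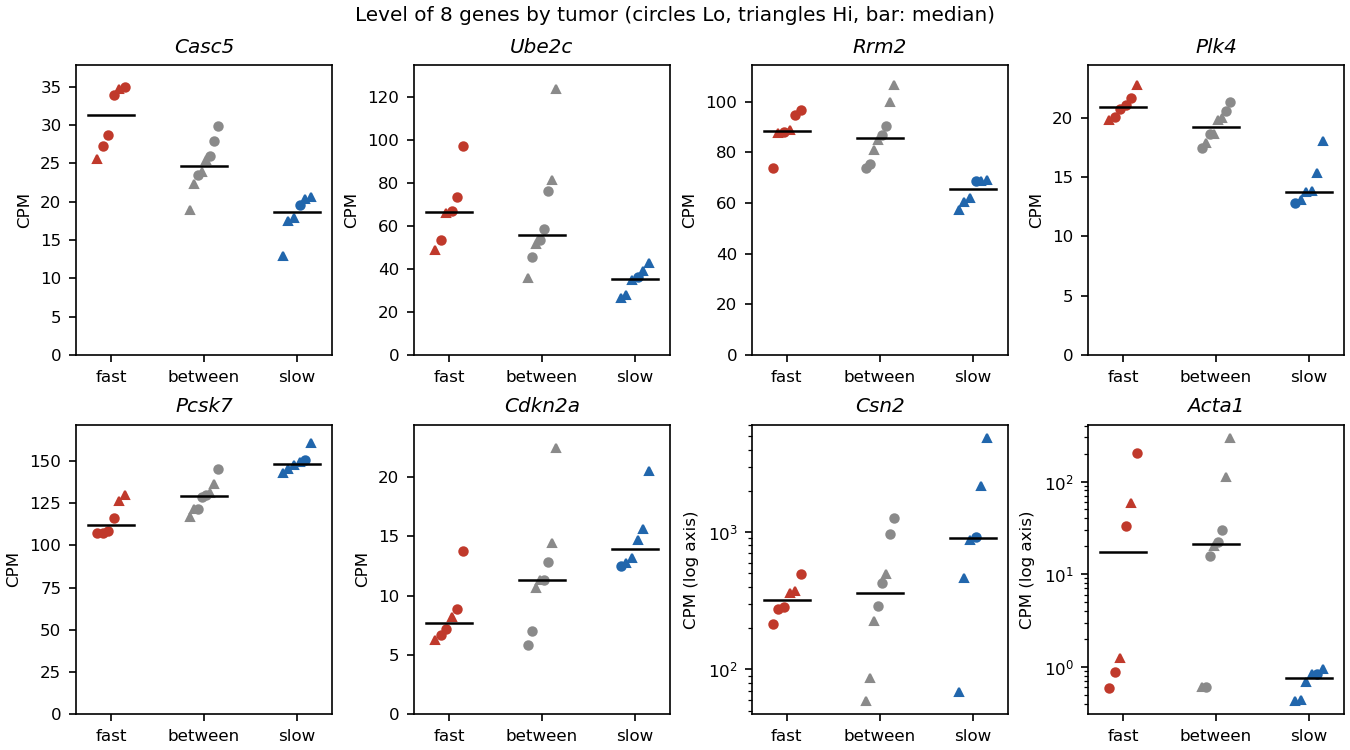
CPM of 8 genes in each tumor by group, with bars at the medians, circles for Lo and triangles for Hi, and log axes for Csn2 and Acta1. Casc5, Ube2c, Rrm2, Plk4 and Pcsk7 do not overlap between fast and slow tumors, Cdkn2a overlaps by 1 fast tumor, and Acta1 is at 33.2 CPM or more in 3 of the 6 fast tumors.

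The other lower genes with the smallest p belonged to no list. Pcsk7 (ENSMUSG00000035382), a protease that matures secreted proteins, is at Chr9, 45906569 to 45929692 (mm10). It was at 107, 112 and 130.1 CPM in fast and at 143, 148 and 161 CPM in slow tumors (log2 fold change -0.37, adjusted p = 0.135 by edgeR). Every fast tumor lay below every slow tumor in this gene, as in 0.137% of genes (26 of 18959). Mrps6, a protein of the mitochondrial ribosome, had medians of 129 and 185 CPM. Itih2, a heavy chain that stabilizes hyaluronan, had medians of 20.7 and 44.9 CPM, Slc4a4, a bicarbonate transporter, 10.3 and 19.2 CPM, and the ubiquitin ligase Wwp2 141 and 221 CPM. The groups overlapped in these 4 genes. Pkd2l1, a cation channel gene, had medians of 0.538 and 2.52 CPM, with overlap. Among RNAs known by clone names, B630019A10Rik had medians of 0.348 and 0.718 CPM, 1810012K16Rik of 0.293 and 0.711 CPM and E030013I19Rik of 50.8 and 67.1 CPM. The strand setting of the counting is not given in the sources used here, so reads of these RNAs and of genes they overlap may not be separate.

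Milk protein and secretory genes tended to be lower in fast tumors. Of 17 genes, 9 were lower and 0 higher at an unadjusted p under 0.05 (backgrounds 3.02% and 3.62%), 16 had a negative log2 fold change and the median was -0.67, or -0.61 with Lo or Hi as a term. By edgeR 0 of them passed, and Mfge8 alone passed DESeq2. Chosen after their values were seen, the beta-casein gene Csn2 was at 213, 322 and 496 CPM in fast and at 68.5, 903 and 4883 CPM in slow tumors. The slow range contains the fast range. Tumor 21, the slowest, had the most Csn2 and the most Wap (30.05 CPM), the gene of whey acidic protein, while tumor 12 had the least of both among slow tumors. Mfge8, a milk fat globule protein, was at 1896, 2310 and 2733 CPM in fast and at 2379, 3282 and 4048 CPM in slow tumors. The most abundant members differed less, with Csn3, the kappa-casein gene, at medians of 9510 and 9941 CPM and Trf, the transferrin gene, at 27980 and 36020 CPM. In the tumors between, 7 of the 17 slopes on the score were above 0.

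Other growth programmes showed little difference between the groups. Ribosome biogenesis, which supplies growing cells, had 0 of 40 genes at an unadjusted p under 0.05 and a median log2 fold change of 0.047, with Ncl at medians of 642 and 636 CPM and Npm1 at 439 and 392.5 CPM. Nucleotide and one-carbon synthesis had 3 of 24 genes higher and a median of 0.10 (backgrounds, here and below, 3.62% higher and 3.02% lower). Paics, an enzyme of purine synthesis, had medians of 335 and 323 CPM. Glycolysis and the hypoxia response had 0 of 28 genes at that level and a median of -0.0092, with Pkm, a glycolytic enzyme, at 2361 and 2570 CPM. Cholesterol and fatty acid synthesis (median -0.022 over 27 genes), p53 targets (-0.0029 over 20), adhesion and EMT genes (0.084 over 15) and immediate-early genes (-0.070 over 22) also had 0 genes at that level. Hormone receptors and luminal factors had a median of -0.079 over 17 genes with 1 gene each way, ErbB receptors and ligands 0.025 over 13 with 2 higher and 1 lower, unfolded protein and heat shock genes 0.10 over 23 with 1 higher, and nuclear-retained RNAs 0.058 over 7 with 0. By edgeR 0 genes of these lists passed the adjusted threshold, and DESeq2 passed 0.

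The median of interferon-stimulated genes was above 0 but turned on single tumors and on the label. All but 1 of 28 genes had a positive log2 fold change and the median was 0.48, yet 0 had an unadjusted p under 0.05. The level of the list ran from 3.59 to 5.66 in fast and from 3.22 to 5.69 in slow tumors. The median was 0.14 without tumor 1, 1.09 without tumor 13, -0.019 with Lo or Hi as a term and 0.073 without tumors 1, 14 and 11. Bst2, an antiviral membrane protein, was at 36.3, 84.5 and 235 CPM in fast and at 25.7, 43.1 and 183 CPM in slow tumors. Antigen presentation had a median of 0.026 over 17 genes, and B2m, the light chain of MHC class I, had medians of 571 and 541 CPM.

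**Figure D4:**
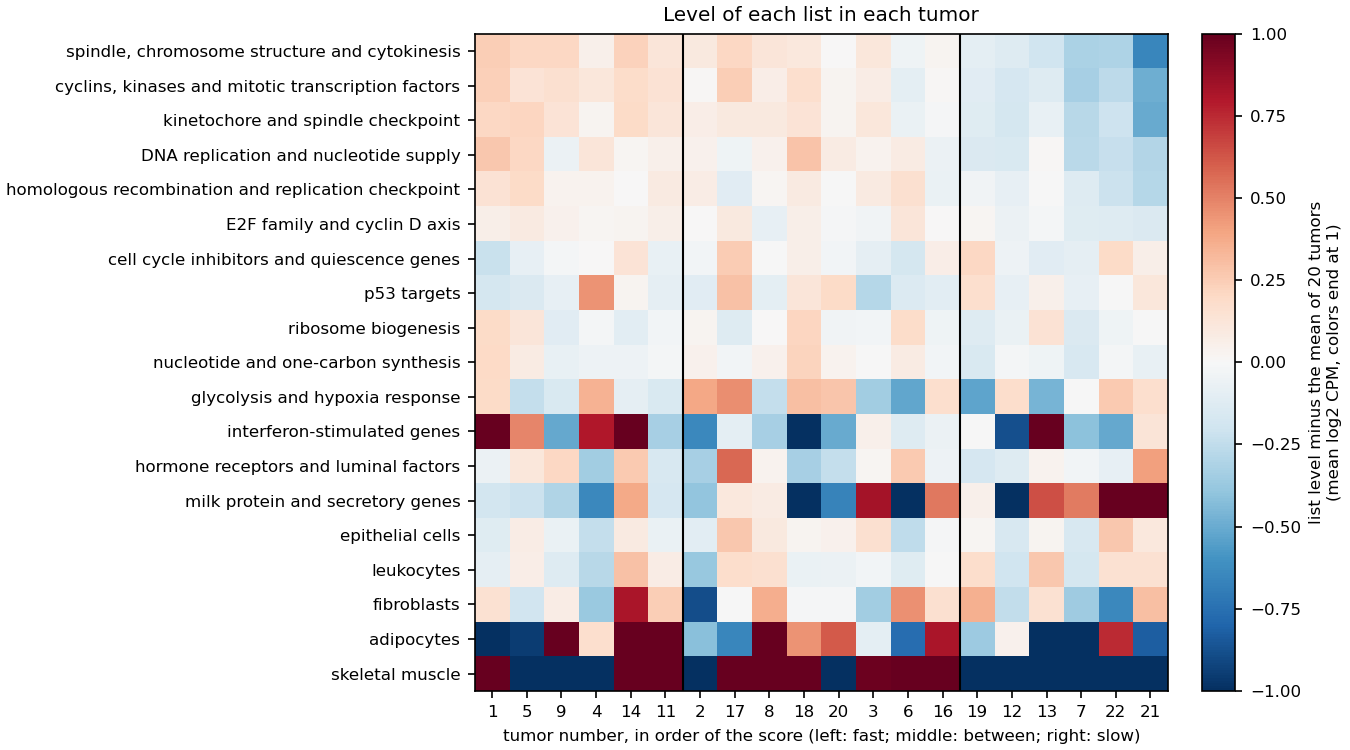
Rows are gene lists and columns the 20 tumors in order of the score, with color for the list's mean log2 CPM minus its mean over the 20 tumors, saturated at 1. The mitosis rows are above their mean in the fast tumors and below it in the slow ones, and the skeletal muscle row is high in tumors 1, 14 and 11 of the fast group and in no slow tumor.

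Markers of other cell types in the tumor pieces were compared next to these results. Lists for leukocytes (median log2 fold change -0.082 over 10 genes), macrophages (-0.039 over 12), epithelial cells (-0.082 over 11), fibroblasts (0.18 over 10) and endothelial cells (0.19 over 10) had at most 2 genes each at an unadjusted p under 0.05. With 1 tumor left out, the fibroblast median lay between 0.043 (without tumor 14) and 0.30 (without tumor 19), and the endothelial one between 0.098 (without tumor 14) and 0.31 (without tumor 5). Without tumors 1, 14 and 11 they were -0.13 and 0.086. T cell markers (-0.17 over 11), B cell markers (-0.40 over 4) and neutrophil markers (0.12 over 5) had at most 1. For these and the lists below, the backgrounds at an unadjusted p under 0.05 are 3.62% higher and 3.02% lower. Lcp1, an actin-bundling protein of leukocytes, had medians of 376 and 376 CPM, and Col3a1, a fibrillar collagen, 586 and 461 CPM. Adipocyte markers had a median of 1.03 over 9 genes, with 2 at an unadjusted p under 0.05, and Fabp4, a fatty acid carrier, was at 10.2, 23.6 and 47.4 CPM in fast and at 5.45, 14.5 and 25.1 CPM in slow tumors. The groups overlapped in Fabp4, and the part of fat tissue in the other results was not tested. Among 11 basal and myoepithelial genes Krt14 alone had an unadjusted p under 0.05, with medians of 0.191 and 0.810 CPM and its highest slow value, 7.73 CPM, in tumor 21.

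Skeletal muscle genes had the largest median log2 fold change of the 32 lists, and 3 fast tumors carried it. All 8 genes were higher at an unadjusted p under 0.05, DESeq2 passed all 8, and the median log2 fold change was 5.47. The summed CPM of the 8 genes was 748 in tumor 14, 218 in tumor 11 and 151 in tumor 1. It was 7.56, 5.34 and 5.52 in tumors 5, 9 and 4, and between 2.62 and 5.88 in slow tumors. Acta1, the actin of skeletal muscle, was at 0.596, 17.2 and 206 CPM in fast and at 0.426, 0.759 and 0.954 CPM in slow tumors, and 6 of the 8 tumors between had a summed CPM of 71.9 or more. Without tumors 1, 14 and 11, a choice made after these values were seen, the median was 0.69 for muscle, 0.42 for cyclins and kinases, 0.39 for the kinetochore, 0.44 for the spindle and 0.26 for replication. With all 6 fast tumors the last 4 values were 0.52, 0.44, 0.49 and 0.32. By edgeR 0 genes passed without these tumors, the lowest adjusted p was 0.987 and 881 genes had an unadjusted p under 0.05. The part of muscle RNA in the other results was not tested.

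The unequal split of labels was looked at in the same way. With Lo or Hi as a term, the median log2 fold change was 0.43 for cyclins and kinases, 0.40 for the kinetochore, 0.46 for the spindle and 0.26 for replication. Among Hi tumors alone (2 fast against 5 slow) the medians were 0.45, 0.48, 0.47 and 0.37. Among Lo tumors alone (4 fast against 1 slow, where the lone slow tumor was assumed to vary like the others) they were 0.31, 0.26, 0.38 and 0.11. Milk genes had medians of -0.79 in Hi and -0.71 in Lo tumors, and interferon-stimulated genes had 0.40 in Hi and -0.68 in Lo tumors. The Lo values rest on tumor 13 alone as the slow arm, so they say little of Lo tumors in general, and the difference between labels was not tested.

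The 8 tumors between the groups were not used in the comparison, so the slope of each gene on the score was fitted in them. Of 19234 genes tested, 0 had an adjusted p under 0.05 by edgeR (0%) and 497 an unadjusted p under 0.05 (2.58%), while DESeq2 passed 1. The score spans only -0.041 to 0.633 in these tumors. Over all genes 52.2% of slopes were above 0. In the mitosis lists the slope was above 0 in 18 of 23 cyclin and kinase genes, 33 of 44 kinetochore genes and 43 of 50 spindle genes, 94 of 117 in all. In the replication list 26 of 57 slopes were above 0 and in homologous recombination 19 of 46. Since these genes vary together over 8 tumors that share their libraries with the score, the counts are a description with no test. A score that holds mitotic genes favors the mitosis lists here too.

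Single genes did not all follow the contrast between the lists. Ube2c had a slope of 0.84 on the log2 scale per unit of score in the tumors between, Nusap1 of 0.59 and Casc5 of 0.38, while Rrm2 had -0.13 and Fbxo5 -0.21. Against the direction of most mitosis genes, Pbk had -0.163 and Smc1a -0.161, and the replication checkpoint gene Chek1 had 0.140. Of the 10 higher genes with the smallest p, 8 had a slope above 0, and of the 10 lower ones 5 had a slope below 0. Of the 684 genes that were higher at an unadjusted p under 0.05 and also fitted here, 62.3% had a slope above 0, against 52.3% of the 18765 genes fitted in both. Of the 571 lower ones, 56.7% had a slope below 0, against 47.7%. Slopes were above 0 in 28 of 28 glycolysis and hypoxia genes (median slope 0.83) and in 23 of 23 unfolded protein and heat shock genes. The same held for 8 of 8 skeletal muscle genes and 20 of 22 immediate-early genes. By contrast, the slope was above 0 in 0 of 10 fibroblast, 0 of 10 endothelial, 0 of 9 adipocyte and 0 of 9 T cell markers.

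**Figure D5:**
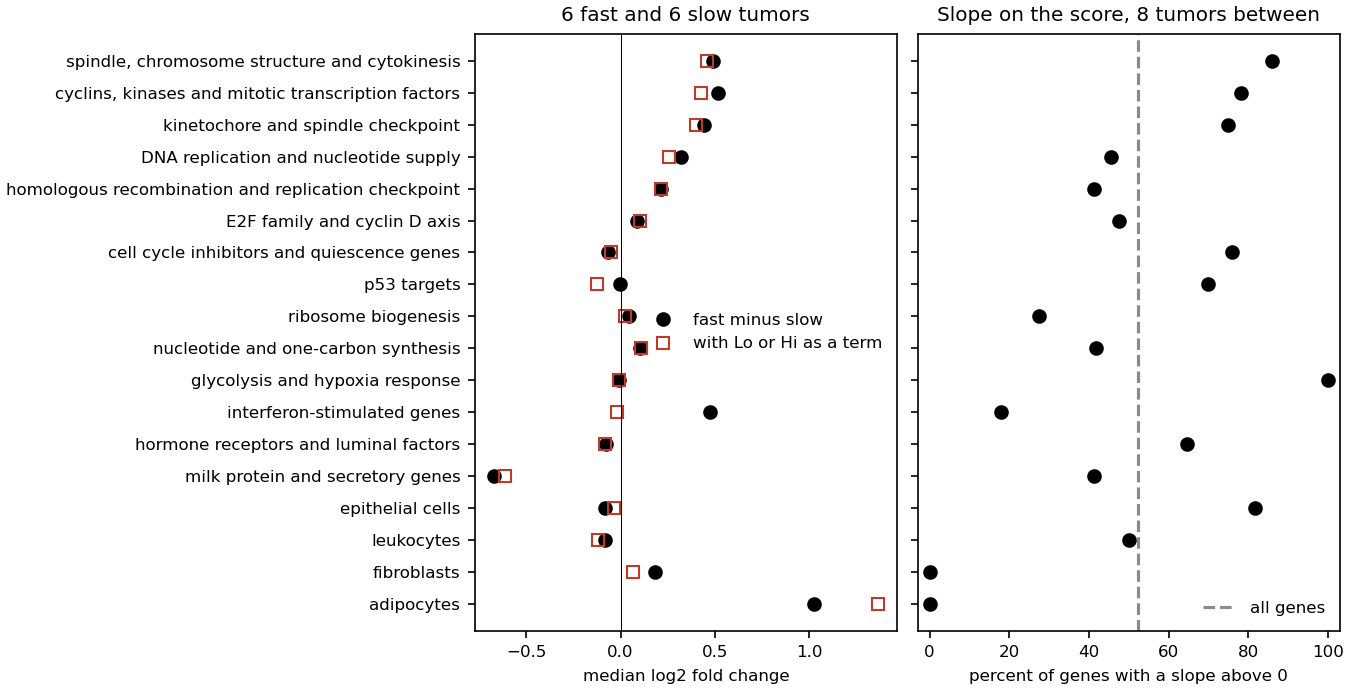
The left panel gives the median log2 fold change of each list between fast and slow tumors and with Lo or Hi as a term, and the right panel the percent of its genes whose slope on the score was above 0 in the 8 tumors between, with a line at 52.2% for all genes. Interferon-stimulated genes move from 0.48 to -0.019 with the label, and with it the mitosis lists lie between 0.40 and 0.46.

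Chromosome dosage, which varies among these tumors, was compared as the median over a chromosome's genes of log2 CPM relative to the 20 tumors, minus the same over autosomes. Of 20 chromosomes 0 passed (exact two-sided permutation test, lowest adjusted p = 0.889). The differences, fast minus slow, were -0.027 for Chr1, 0.067 for Chr2 and -0.064 for Chr4. For Chr1 the fast tumors lay between -0.29 and 0.049 and the slow tumors between -0.12 and 0.061. Tumor 4, a fast tumor, set the low end at -0.29, and without it the difference was 0.025. The groups overlapped in the dosage of all 3 chromosomes.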

How the data were processed

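Total RNA of 20 tumors was made into paired-end libraries with an mRNA kit and sequenced together. The authors deposited raw read counts per gene, not normalized, made with TopHat2 2.0.12 and featureCounts 1.4.4 on mm10, per the labels and the study's methods. The strand setting and annotation version are not given in the sources used here, so counts of overlapping and antisense genes are uncertain. Tumors were ranked by the score and the 6 highest and 6 lowest compared. The score genes, Yam1 and AY036118 were left out of the tests and the latter pair out of all totals.

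Counts were tested with edgeR 4.0.16 (quasi-likelihood, TMM factors over 20 tumors, filterByExpr, Benjamini-Hochberg at 0.05) in R 4.3.3. DESeq2 1.42.0 and limma 3.58.1 were alternatives, and other filters, scalings, groupings, covariates and left-out tumors were tried. CPM in the text is scaled by the TMM factors. Differences in dosage and in the share of ribosomal RNA were tested by exact permutation over all splits, in Python 3.11.15. Named genes were the 10 with the smallest p in each direction (0 genes passed the threshold, so no limit on their level applied), the 2 members of each list with the highest CPM, Erbb2 and E2f1, and exceptions are marked in the text. Values of some list members are not reported here. Groups, members and all lists were chosen with earlier results of these data known. Of 679 listed symbols, 674 were found as listed and 5 under an older symbol. Replicate numbers in the sample names, whose meaning the sources do not give, were not used to pair the tumors in the main fit.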

Additional observations from a re-analysis of the deposited data

Results flagged for a closer look

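In 189 groups of tumors, 1 tumor far from the rest of its group was searched for by Dixon's criterion. The values were list levels, named genes, the 5 score genes, the share of ribosomal RNA and chromosome dosage. Such a tumor was found in 13, where chance gives about 1 in 20, or 9.45. Tumor 14 stood above the other fast tumors in Cdkn2a, at 13.74 CPM with the next at 8.90, and in Itih2, at 38.35 CPM with the next at 21.88, so that in both lower genes it lay nearest to the slow tumors. Tumor 1, the fastest, stood above the other fast tumors in Cdk1, at 101.1 CPM with the next at 85.6. Cdk1 is a score gene, so its level helped to rank tumor 1 first and is a description only. In Prr11, tumor 17 stood above the other tumors between, at 21.5 CPM.

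Among list levels, as mean log2 CPM, tumor 4 had the highest level of p53 targets of the fast tumors, 4.97 against 4.55 in the next. Tumor 21, the slowest, had the highest level of hormone receptors and luminal factors of the slow tumors, 5.056 against 4.685. Of the tumors between, tumor 18 was high in DNA replication (5.207 against 5.005) and in nucleotide and one-carbon synthesis (5.703 against 5.564), and tumor 6 in basal and myoepithelial genes (3.298 against 2.411).

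For Chr1 dosage, tumor 4 lay below the other fast tumors at -0.2928, and tumor 20 below the other tumors between at -0.2239. For Chr2 dosage, tumor 13 lay above the other slow tumors at 0.122, and tumor 17 above the other tumors between at 0.1596.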

How the results depend on the processing

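The count of genes past the adjusted threshold, 0 by edgeR, was the result that moved most. It was 193 with DESeq2, 47 with all 20 tumors in 3 groups (36 of them in the cell cycle and repair lists with the E2F list, and all 47 among those of DESeq2), 246 for a slope on the score over 20 tumors, 16 with the score on TMM log2 CPM and 1 (Lao1, lower) for the 4 highest against the 4 lowest. Leaving out 1 tumor at a time gave 0 to 3, with 3 (Hmgb2, Mrps6 and Plk4) without tumor 19. It was 1 among Hi and 5 among Lo tumors, both added after seeing the data. It was 0 with other factors, filters, 5 or 7 tumors a group, the label, leukocyte or ribosomal RNA term, and, as added alternatives, robust edgeR, limma-voom and the fast tumors without muscle RNA.

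The 1259 genes at an unadjusted p under 0.05 became 2006 with all genes of at least 1 count, 1905 for the slope over 20 tumors, 593 with Lo or Hi as a term, 716 among Hi and 581 among Lo tumors, and 994 to 1546 with 1 tumor left out. In the 8 tumors between, DESeq2 passed 1 gene against 0, and 497 genes at an unadjusted p became 1407 with all genes of at least 1 count. Chromosome dosage gave 0 under each alternative. The difference in ribosomal RNA share lay between 1.943 and 4.762 points with 1 tumor left out.

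With the replicate number as a block, 0 genes passed and 1223 had an unadjusted p under 0.05 (615 higher, 608 lower). Only number 4 (tumors 14 and 7) and number 8 (tumors 4 and 21) held both a fast and a slow tumor. In both the fast tumor was Lo and the slow one Hi, so this fit cannot tell score from label. Of the 9 numbers shared by Lo and Hi tumors, 3 had a correlation of deviations over 0.1 (from -0.374 to 0.237 over all). The numbers were taken not to pair the tumors, but these correlations were not compared with those of other pairs. They cannot exclude a pairing.

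The log2 fold change of Pkd2l1 was 0.014 among Lo tumors alone, against -1.72, and the Chr1 difference, -0.027, lay between -0.051 (without tumor 19) and 0.025 (without tumor 4) with 1 tumor left out. The cause was not tested. The median of a list was counted as moved if it shifted by at least the SD of the list's level between tumors of a group. By this wide limit 50 values of lists under an alternative moved and 1005 did not. Interferon-stimulated genes, at 0.48 and at -0.019 with the label, count as not moved, since their SD was 0.83. The counts therefore do not show that the medians were stable. The median of the milk list lay between -1.15, with ribosomal RNA kept in the totals of the score, and -0.44, with the leukocyte term. That of the spindle list lay between 0.37, with the same totals, and 0.65, with the replicate block. With 1 tumor piece per mouse, the spread between pieces of a tumor cannot be told from that between tumors.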
